A study of Mus musculus with 7 samples.

Results

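The genes of sterol and fatty acid synthesis were followed through 3 kinds of mouse cells: hepatic stem cells that were induced from fibroblasts, primary hepatocytes, and the fibroblasts themselves. The list held 36 genes, which encode enzymes of the mevalonate and sterol pathway, enzymes that make, desaturate and elongate fatty acids, and the regulators of both routes. A gene was included if the table of expression levels held a probe set for it, and where several probe sets stood for a gene, the brightest over all 7 arrays was taken. This gave 35 genes of the 18193 genes in the table, and Acat2 was not analysed here.

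Cells build cholesterol from acetyl-CoA through mevalonate, isoprenoid diphosphates, squalene and lanosterol, and build fatty acids from acetyl-CoA through malonyl-CoA. Both routes are controlled by the sterol regulatory element binding proteins (SREBPs), transcription factors that are held in the endoplasmic reticulum by Insig proteins while sterols are plentiful and are escorted to the Golgi by Scap when sterols fall, where they are cleaved and released to the nucleus. The liver is a main site of both routes. SREBPs bind sterol response elements in promoters and usually act together with NF-Y, the factor that binds the CCAAT box.

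RNA was measured on Affymetrix arrays, and the deposited values are log2 expression levels, so that a difference of 1 is a doubling. The iHepSC group held 2 arrays of induced hepatic stem cells, 1 at passage 3 (P3, replicate 1) and 1 at passage 20 (P20, replicate 2). The pHep group held 1 array of primary hepatocytes, and the MEF group held 4 arrays of mouse embryonic fibroblasts. The strain label of all samples is C57BL/6, and the methods give C57BL/6J for the mice and embryos. The iHepSCs had been made from MEFs with lentiviruses that carried Oct4 and Hnf4α under the viral SFFV promoter, and were picked as cell clusters and expanded as clones in hepatocyte (HEP) medium. Clone iHepSC-C3 was chosen for the detailed work on these cells, but the sources do not name the clone of the P3 and P20 arrays. The pHep cells came from collagenase-perfused liver of male mice 6 weeks old and were plated for a few hours on collagen before RNA was taken. The MEFs came from mid-gestation embryos without head and internal organs, and were kept in DMEM with serum. Since the iHepSCs and the pHep cells were in William's E medium and the MEFs were in DMEM, the medium and the cell type cannot be told apart. Nothing in the labels says that arrays of a group came from separate cultures or animals, so the p-values reflect only how much these arrays varied, and that variation may be technical.

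The labelled cell types were checked with marker genes. Of 8 hepatocyte markers, 5 passed the test as higher in iHepSCs relative to MEF and 8 did so in pHep, and Alb and Ttr reached 13.74 and 14.36 in iHepSC P3. Apoa2, Serpina1b and Tat did not pass the test in iHepSCs. Fgb and Cps1 passed at low levels, 7.46 and 7.28 for Fgb and 5.67 and 5.98 for Cps1 in iHepSCs, against 14.78 and 12.74 in pHep. Relative to pHep, 7 of the 8 markers had a lower mean in iHepSCs and 1 a higher, with a median difference of -5.31. All 7 fibroblast markers were lower in either hepatic cell type relative to MEF. The pHep array also carried signal of macrophages: 8 of 10 macrophage markers were higher in pHep than in MEF, with a mean level of 9.59 in pHep, against 6.04 and 6.06 in iHepSCs and 6.76 to 7.66 in MEF. Among them, Lyz2 reached 13.45, C1qa 11.08, and the Kupffer cell markers Vsig4 and Marco 11.57 and 9.24 in pHep. Cd5l, another Kupffer cell marker, was at 5.97 there and passed the test, and Clec4f was at 6.08 and did not pass, like Adgre1. The 7 fibroblast markers averaged 8.62 in pHep, against 5.90 on both iHepSC arrays and 12.18 to 13.01 in MEF. Col3a1 and Col1a2 were at 10.87 and 10.47 in pHep, whereas Thy1 was at 5.04 there. In such bulk RNA, fewer cells of a type and less RNA per cell cannot be told apart. MEF replicate 1 stood apart from the other MEF arrays: its correlation with them was 0.960 to 0.961, whereas MEF replicates 2 to 4 correlated at 0.997 with each other. The 4 markers of dividing cells averaged 10.24 in iHepSC P3, 9.36 in iHepSC P20, 8.34 in pHep, 8.68 in MEF replicate 1 and 11.57 to 11.69 in MEF replicates 2 to 4. Their part in the results, and that of the macrophage and fibroblast marker RNA in pHep, was not tested.

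Promoter sequences are shown for 6 genes of the list that did not move together in iHepSCs relative to MEF. Hmgcs1 hardly differed in level, Idi1, Msmo1 and Hsd17b7 fell, and Ebp and Acss2 were higher. The genes stand for these differences, and their control by SREBPs was not measured here. Each sequence is the 200 bases before the annotated start, written 5′ to 3′ on the strand of the gene, from RefSeq on GRCm38.p6. Capitals mark matches to the CCAAT box (CCAAT, or ATTGG where it lies on the other strand), to the sterol response element TCACNCCAC and to the E-box CACGTG, all searched on both strands. The windows are chr13:119690151-119690350 (plus strand) for Hmgcs1, chr13:8885406-8885605 (plus) for Idi1, chr8:64733579-64733778 (minus) for Msmo1, chr1:169969206-169969405 (minus) for Hsd17b7, chrX:8193513-8193712 (minus) for Ebp and chr2:155517843-155518042 (plus) for Acss2.
Hmgcs1: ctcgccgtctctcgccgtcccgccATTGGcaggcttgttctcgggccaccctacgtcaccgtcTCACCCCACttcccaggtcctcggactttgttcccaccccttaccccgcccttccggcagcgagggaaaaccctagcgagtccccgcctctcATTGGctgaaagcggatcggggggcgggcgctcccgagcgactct
Idi1: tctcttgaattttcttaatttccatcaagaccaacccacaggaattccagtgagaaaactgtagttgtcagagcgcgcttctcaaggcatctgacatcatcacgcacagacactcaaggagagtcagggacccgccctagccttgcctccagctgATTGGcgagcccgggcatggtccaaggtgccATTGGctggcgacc
Msmo1: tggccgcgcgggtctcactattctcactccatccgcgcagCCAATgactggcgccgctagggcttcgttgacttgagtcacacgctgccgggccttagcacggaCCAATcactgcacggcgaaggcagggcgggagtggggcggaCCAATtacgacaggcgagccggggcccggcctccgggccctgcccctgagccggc
Hsd17b7: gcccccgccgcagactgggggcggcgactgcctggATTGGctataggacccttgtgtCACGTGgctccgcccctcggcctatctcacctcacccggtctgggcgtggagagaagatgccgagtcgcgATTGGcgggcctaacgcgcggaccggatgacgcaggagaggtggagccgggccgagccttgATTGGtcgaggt
Ebp: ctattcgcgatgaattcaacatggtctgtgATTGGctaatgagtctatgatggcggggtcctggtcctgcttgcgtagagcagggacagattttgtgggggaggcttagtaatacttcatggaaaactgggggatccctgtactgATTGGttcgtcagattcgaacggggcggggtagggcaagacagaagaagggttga
Acss2: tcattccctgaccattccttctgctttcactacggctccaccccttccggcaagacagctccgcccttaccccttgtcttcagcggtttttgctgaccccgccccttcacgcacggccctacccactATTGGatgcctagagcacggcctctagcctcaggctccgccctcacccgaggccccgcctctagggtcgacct

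CCAAT boxes were present both in genes that were lower and in genes that were higher. Over windows of 250 bases before to 50 bases after the start, 28 of the 35 measured genes had an entry. Of these, 24 (85.7%) held a CCAAT box, against 42.3% of 17492 protein-coding genes. The E-box was found in 6 genes (21.4%), against 8.91%. The spelled-out sterol response element was found in 1 gene, Hmgcs1 (3.57%), against 1.41%. Fdps, Fdft1, Sqle, Stard4, Scd1, Scd2 and Fads1 had no entry. No test was made of these shares, and a match of letters is not a bound site.

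**Figure D1:**
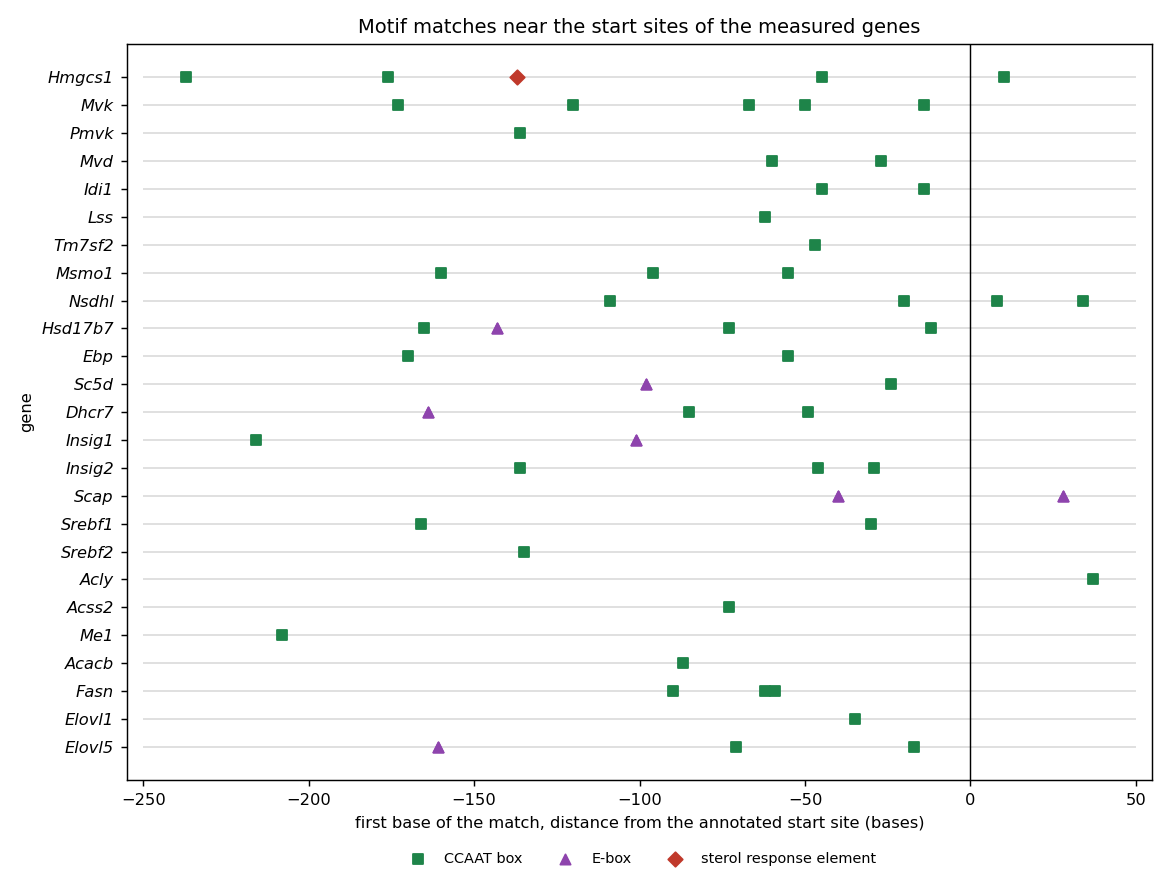
Matches to the 3 motifs in the windows of the 25 measured genes that hold any of them. The horizontal axis is the distance in bases from the annotated start to the first base of the match, and each row is a gene, with squares for the CCAAT box, triangles for the E-box and a diamond for the sterol response element. Most CCAAT boxes lie before the start, and the only diamond is in the row of Hmgcs1.

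The synthesis genes split in iHepSCs: most sterol enzymes were lower than in MEF, whereas a few genes, among them the acetate enzyme Acss2, the desaturase Scd1 and the regulator Srebf1, were higher. Relative to MEF, 16 of the 35 genes were lower and 7 were higher in iHepSCs at an adjusted p under 0.05 (limma, Benjamini-Hochberg over all genes), and 12 did not pass. Over all genes, 31.6% passed, with 13.4% lower and 18.2% higher. The median log2 difference was -0.40 over the 35 genes and 0.01 over all genes, but centring each array on Gapdh moved these medians to 0.09 and 0.50, so that the sign of the first turns while the 35 genes stay below all genes. With that centring 8 genes were lower and 9 were higher. Gapdh itself was at 13.97 and 13.67 in iHepSCs, 14.28 in pHep and 13.99, 14.43, 14.42 and 14.39 in MEF. Centring on it therefore raises the difference of iHepSC minus MEF for every gene. Without MEF replicate 1, 20 were lower and 9 were higher, but the counts over all 18193 genes also grew, to 4514 lower and 5638 higher. Without iHepSC P20 only 10 were lower and 4 were higher.

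In pHep the same list leaned the other way relative to MEF. Of the 35 genes, 15 were higher and 3 were lower in pHep than in MEF, against 14.8% higher and 15.5% lower over all genes (30.3% in either direction). The median difference was 0.54, and -0.13 over all genes. Without MEF replicate 1, 24 were higher and 6 were lower, but the counts over all 18193 genes also grew, to 4917 higher and 5743 lower. The pHep group is a single array, which is assumed in the fit to vary like the other groups.

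Between the hepatic cells, no gene of the list was higher in iHepSCs than in pHep and 20 were lower, against 9.26% higher and 7.89% lower over all genes (17.1% in either direction; limma). At an unadjusted p under 0.05 the counts were 0 higher and 24 lower. The median difference was -1.01, and 0.15 over all genes. Without MEF replicate 1, 1 gene (Srebf2) was higher and 28 were lower, without iHepSC P3 13 were lower, and without iHepSC P20 12 were lower. Of all 18193 genes, 4628 were higher and 3144 lower without MEF replicate 1, also more than with all arrays. Centred on Gapdh, 6 genes of the list were lower. The comparisons share arrays: iHepSC against MEF and pHep against MEF share the MEF arrays, and iHepSC against MEF and iHepSC against pHep share the iHepSC arrays. Likewise, pHep against MEF and iHepSC against pHep share the single pHep array, so a shift of that array would move both.

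**Figure D2:**
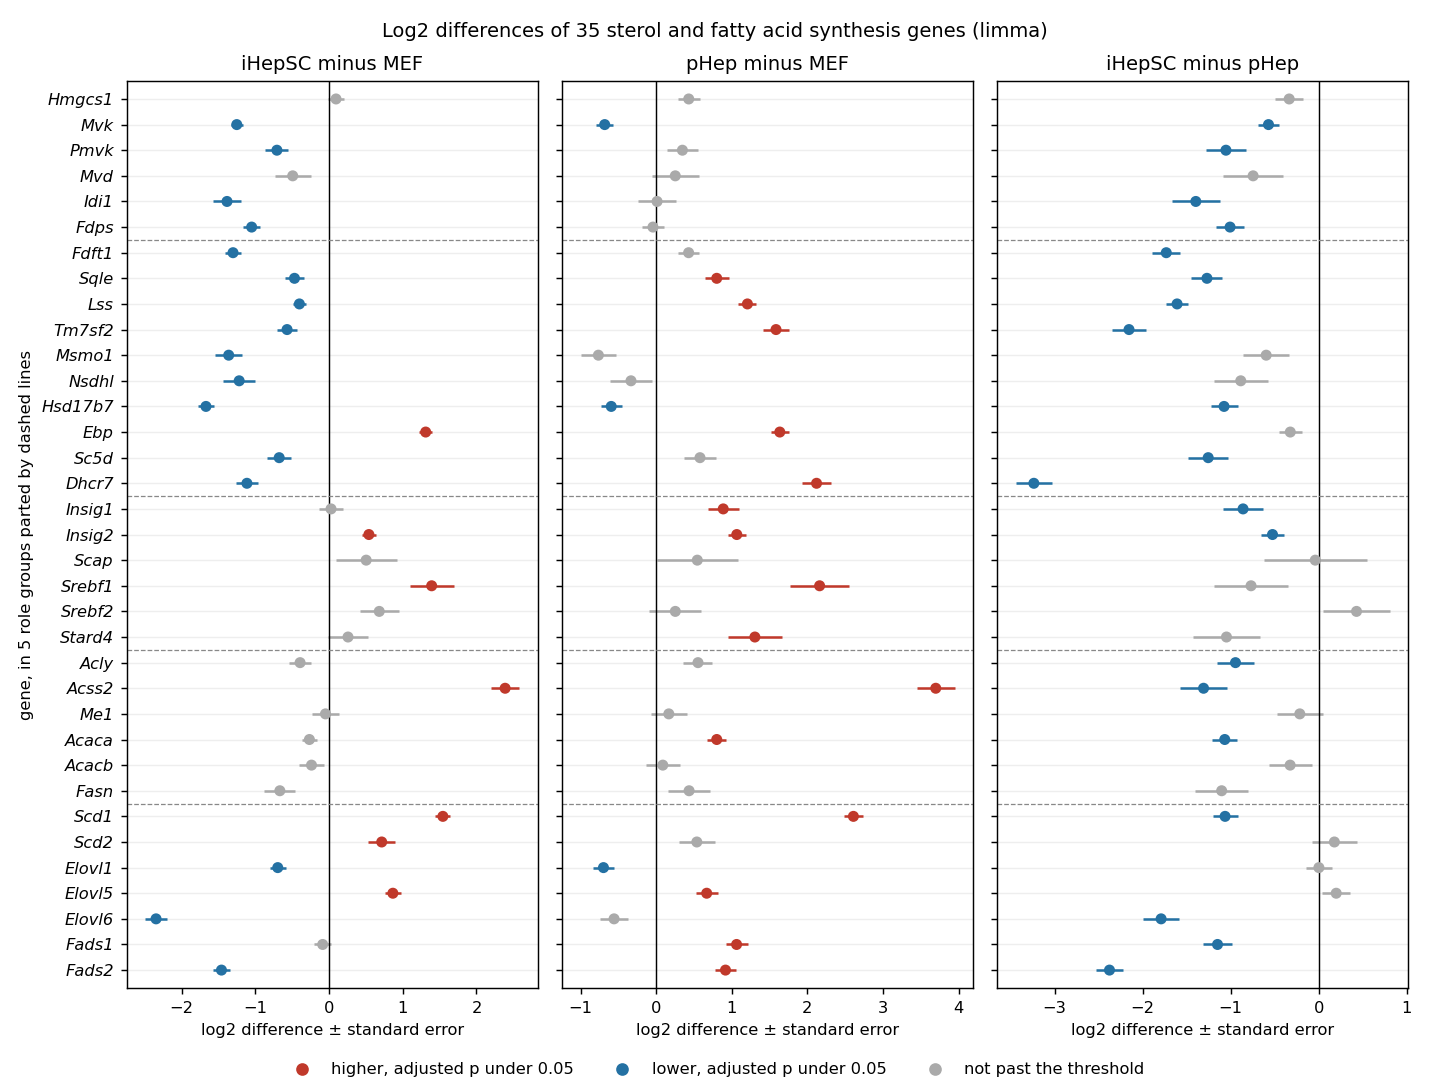
Log2 differences of the 35 genes with their standard errors from limma, for iHepSC minus MEF, pHep minus MEF and iHepSC minus pHep, with genes in rows by role. Red points are higher and blue points lower at an adjusted p under 0.05, and grey points did not pass. In the left panel 16 points are blue and 7 red, in the middle panel 3 are blue and 15 red, and in the right panel 20 are blue and none red; with arrays centred on Gapdh the left panel would hold 8 lower and 9 higher genes, with a median of 0.09 in place of -0.40.

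The mevalonate arm was lower in iHepSCs relative to MEF at 4 of its 6 measured steps, against 13.4% of all genes. With arrays centred on Gapdh it was 2 steps, and 2 with MEF replicates 2 to 4 as 1 sample. Mvk, which phosphorylates mevalonate, had 7.80 and 7.82 in iHepSCs, 8.38 in pHep and 9.03, 9.04, 9.07 and 9.10 in MEF. The MEF arrays spanned less than 0.1, and every iHepSC and pHep value lay below them. Mvk fell by 1.25 (standard error 0.08, 2.38-fold, adjusted p = 1.21e-04) in iHepSCs relative to MEF and by 0.68 (0.11, adjusted p = 0.00581) in pHep relative to MEF.

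Idi1, which makes dimethylallyl diphosphate from its isomer, had 10.54 and 10.27 in iHepSCs, 11.80 in pHep and 11.39, 11.92, 11.93 and 11.93 in MEF. The iHepSC arrays lay below all others, and the low MEF value is that of replicate 1. Idi1 fell by 1.38 (standard error 0.20, adjusted p = 0.00278) in iHepSCs relative to MEF, whereas the pHep value did not differ from MEF beyond the spread (difference 0.01, adjusted p = 0.975). Fdps, which joins isoprenoid units to farnesyl diphosphate, had 11.09 and 11.11 in iHepSCs, 12.11 in pHep and 11.99 to 12.28 in MEF. Like Idi1 it was low only on the iHepSC arrays, by 1.05 (standard error 0.11, adjusted p = 9.55e-04) relative to MEF. Pmvk, the kinase after Mvk, fell by 0.71 (standard error 0.16, adjusted p = 0.0171) in iHepSCs relative to MEF, a call that was lost without MEF replicate 2 or 4 or either iHepSC array (adjusted p up to 0.113).

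The other members of this arm did not pass the test in iHepSCs. Hmgcs1, which makes HMG-CoA, had 12.68 and 12.71 in iHepSCs, 13.03 in pHep and 12.78, 12.46, 12.59 and 12.58 in MEF, so that its iHepSC values lay among those of MEF. Mvd, which makes isopentenyl diphosphate, had 7.99 and 8.02 in iHepSCs, 8.75 in pHep and 9.02, 8.42, 8.42 and 8.12 in MEF. Its iHepSC values lay below all MEF values, but the difference of -0.49 (standard error 0.24) had an adjusted p of 0.186. Without MEF replicate 1, the highest of the MEF values, the difference was -0.32 and the adjusted p was 0.048.

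Beyond farnesyl diphosphate, all 10 measured steps passed the test in iHepSCs relative to MEF, 9 lower and 1 higher (5 lower without MEF replicate 3, 4 without iHepSC P20 and 4 centred on Gapdh). Among all genes, 13.4% were lower and 18.2% higher in this comparison. Fdft1, squalene synthase and the first enzyme committed to sterols, had 10.60 and 10.44 in iHepSCs, 12.25 in pHep and 11.91, 11.89, 11.80 and 11.68 in MEF. The 3 groups did not overlap, and iHepSCs were the lowest. Fdft1 fell by 1.30 (standard error 0.11, 2.47-fold, adjusted p = 3.24e-04) in iHepSCs relative to MEF and by 1.73 (0.16, adjusted p = 7.71e-04) relative to pHep.

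The enzymes that strip the methyl groups of lanosterol were low in iHepSCs too. Hsd17b7, the ketosterol reductase of this step, had 9.13 and 9.26 in iHepSCs, 10.27 in pHep and 10.72, 10.88, 10.97 and 10.88 in MEF. On the probe set used, the groups did not overlap, with iHepSCs lowest and MEF highest. It fell by 1.67 (standard error 0.11, 3.18-fold, adjusted p = 1.03e-04) in iHepSCs and by 0.59 (0.14, adjusted p = 0.0238) in pHep relative to MEF, and the pHep call was lost without MEF replicate 2, 3 or 4 (adjusted p up to 0.0607). The pHep call for Hsd17b7 was also lost with probe sets averaged. On another bright probe set of Hsd17b7 the level was 8.12 and 7.93 in iHepSCs, 9.36 in pHep and 9.47, 8.80, 8.69 and 8.68 in MEF. There pHep lay within the MEF arrays and iHepSCs again lay below them. Msmo1, the methyl oxidase, had 10.55 and 10.43 in iHepSCs, 11.09 in pHep and 11.48, 11.94, 12.09 and 11.91 in MEF. It fell by 1.36 (standard error 0.18, adjusted p = 0.00226) in iHepSCs relative to MEF, and the pHep difference of -0.76 just missed the threshold (adjusted p = 0.0549). Nsdhl, the decarboxylating dehydrogenase, had 10.05 and 10.06 in iHepSCs, 10.94 in pHep and 10.78 to 11.51 in MEF. It fell by 1.22 (standard error 0.22, adjusted p = 0.00736), and not beyond the threshold when either iHepSC array was left out (adjusted p up to 0.065).

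A subset of sterol enzymes lay on opposite sides of MEF in the hepatic cells: Sqle, Lss, Tm7sf2 and Dhcr7 were lower in iHepSCs and higher in pHep. Dhcr7, the last reductase before cholesterol, had 7.36 and 7.66 in iHepSCs, 10.75 in pHep and 8.66, 8.42, 8.79 and 8.62 in MEF. It fell by 1.11 (standard error 0.14, adjusted p = 0.002) in iHepSCs relative to MEF and rose by 2.12 (0.19, 4.35-fold, adjusted p = 5.27e-04) in pHep relative to MEF. The fall in iHepSCs did not pass with arrays centred on Gapdh. The gap between iHepSCs and pHep, -3.24 (standard error 0.205, 9.42-fold, adjusted p = 1.77e-04), was the widest of the 35 genes.

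Tm7sf2, a sterol reductase, had 8.36 and 8.42 in iHepSCs, 10.54 in pHep and 9.15, 8.82, 9.06 and 8.81 in MEF. It rose by 1.59 (standard error 0.17, adjusted p = 0.00129) in pHep relative to MEF and fell by 0.57 (0.13, adjusted p = 0.0212) in iHepSCs, where the call was lost without MEF replicate 3 or either iHepSC array (adjusted p up to 0.131). Lss, which closes the rings of lanosterol, had 9.15 and 9.11 in iHepSCs, 10.74 in pHep and 9.47 to 9.61 in MEF. Sqle, squalene epoxidase, had 11.32 and 10.96 in iHepSCs, 12.41 in pHep and 11.57 to 11.66 in MEF. The rises in pHep relative to MEF, 1.21 for Lss (adjusted p = 8.17e-04) and 0.80 for Sqle (adjusted p = 0.0133), were wider than the falls in iHepSCs, 0.40 for Lss (adjusted p = 0.0186) and 0.47 for Sqle (adjusted p = 0.0321). Both falls were lost without some single arrays, MEF replicates 2 and 3 and iHepSC P20 among them (adjusted p up to 0.122 for Lss and 0.193 for Sqle), and with arrays centred on Gapdh both differences were above 0, at 0.0880 and 0.0213.

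Sc5d, the desaturase that acts near the end of the pathway, had 11.005 and 10.59 in iHepSCs, 12.06 in pHep and 11.25, 11.52, 11.61 and 11.52 in MEF. It fell by 0.68 (standard error 0.16, adjusted p = 0.0221) in iHepSCs relative to MEF, and its pHep value lay above all MEF values without passing the test (0.58, adjusted p = 0.0827). The iHepSC call was lost without MEF replicate 2, 3 or 4 or iHepSC P20 (adjusted p up to 0.162).

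Ebp was the exception among the sterol enzymes. It encodes the isomerase that moves a double bond of the sterol ring, and it had 12.08 and 12.18 in iHepSCs, 12.46 in pHep and 10.77, 10.86, 10.86 and 10.79 in MEF. Both hepatic cell types stood clear of MEF. Ebp rose by 1.31 (standard error 0.09, 2.48-fold, adjusted p = 1.37e-04) in iHepSCs and by 1.64 (0.12, adjusted p = 2.13e-04) in pHep relative to MEF, and iHepSCs and pHep did not differ beyond the threshold (-0.32, adjusted p = 0.156). It has a single probe set on the array.

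**Figure D3:**
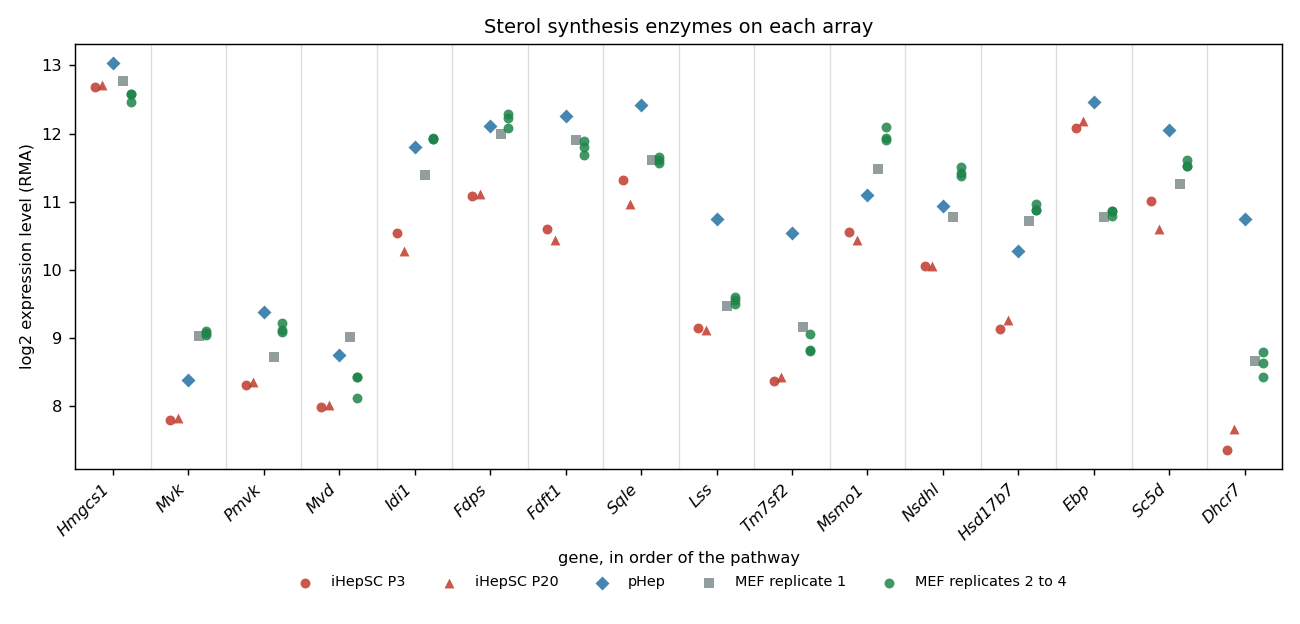
Log2 expression levels of the 16 sterol enzymes on each array, in the order of the pathway. The vertical axis is the log2 level and each point is 1 array, with iHepSC P3 and P20 in red, pHep as blue diamonds, MEF replicate 1 as grey squares and MEF replicates 2 to 4 in green. The red points lie below all grey and green points for each gene except Hmgcs1 and Ebp.

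Over both arms, 13 of the 16 measured sterol enzymes were lower and 1 was higher in iHepSCs relative to MEF, with a median difference of -0.88. The shares of all genes were 13.4% lower and 18.2% higher. The count of lower genes was 7 without iHepSC P20 and 14 without MEF replicate 1. Centred on Gapdh, 6 were lower and the median was -0.39. In pHep 5 were higher and 2 lower than in MEF (9 and 4 without MEF replicate 1), and in iHepSCs 11 were lower than in pHep (16 without MEF replicate 1, 7 without either iHepSC array) and 0 were higher, also at an unadjusted p. Of all genes, 14.8% were higher and 15.5% lower in pHep than in MEF, and 7.89% were lower in iHepSCs than in pHep. The mean log2 level of the 16 genes was 9.88 and 9.84 in iHepSCs, 11.06 in pHep and 10.55 to 10.71 in MEF.

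In iHepSCs relative to MEF, the regulators did not follow the sterol enzymes. In pHep relative to MEF both lists leaned upward, with medians of 0.98 for the regulators and 0.39 for the sterol enzymes. Srebf1, which encodes the SREBP that acts most on fatty acid genes, had 10.97 and 11.20 in iHepSCs, 11.86 in pHep and 10.34, 9.45, 9.71 and 9.28 in MEF. Both hepatic cell types lay above all MEF arrays, and MEF replicate 1 was the highest of these. Srebf1 rose by 1.39 (standard error 0.30, 2.62-fold, adjusted p = 0.0153) in iHepSCs and by 2.16 (0.39, 4.47-fold, adjusted p = 0.00882) in pHep relative to MEF. The iHepSC call was lost when either iHepSC array was left out (adjusted p up to 0.125).

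Srebf2, which encodes the SREBP that acts most on sterol genes, had 10.40 and 10.16 in iHepSCs, 9.85 in pHep and 10.20, 9.47, 9.38 and 9.33 in MEF. The iHepSC values overlapped with MEF replicate 1 and lay above the other MEF arrays. The difference of 0.68 (standard error 0.27) had an adjusted p of 0.108, and 0.88 with an adjusted p of 2.53e-04 without MEF replicate 1. Scap, the escort of the SREBPs, followed the same pattern, with 10.76 and 10.78 in iHepSCs, 10.81 in pHep and 11.27, 9.94, 9.94 and 9.92 in MEF. Its difference of 0.50 (adjusted p = 0.422) became 0.84 (adjusted p = 6.15e-05) without MEF replicate 1, so that for both genes 1 MEF array decided the call.

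The Insig proteins hold the SREBPs back. Insig1 had 10.03 and 9.57 in iHepSCs, 10.66 in pHep and 9.76, 9.63, 9.80 and 9.91 in MEF, and only pHep was clear of MEF (0.89, standard error 0.20, adjusted p = 0.0214, lost without MEF replicate 2 or 3 with an adjusted p of up to 0.0542). Insig2 had 10.49 and 10.55 in iHepSCs, 11.05 in pHep and 9.89 to 10.03 in MEF. Insig2 rose by 0.54 (standard error 0.09, adjusted p = 0.00626, and 0.0594 without iHepSC P20) in iHepSCs and by 1.07 (0.12, adjusted p = 0.00145) in pHep relative to MEF. Stard4, which carries sterol between membranes, had 10.03 and 9.95 in iHepSCs, 11.04 in pHep and 9.09, 9.94, 9.93 and 9.97 in MEF. Its rise of 1.31 in pHep (adjusted p = 0.0364) held only with all arrays or without MEF replicate 1, and was lost without any other single array (adjusted p up to 0.0775). Of the 6 genes of this group, 0 were lower than MEF in iHepSCs or in pHep, also at an unadjusted p under 0.05 (limma). For so few genes this is not far from the 13.4% and 15.5% lower over all genes. In iHepSCs 2 were higher than in MEF, against 18.2% of all genes, and in pHep 4 were higher, against 14.8%. The iHepSC count was 4 with MEF replicate 1 left out, 1 with iHepSC P3 left out and 0 with iHepSC P20 left out. The pHep count was 6 with MEF replicate 1 left out and 2 when MEF replicate 2 or 3 was left out.

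Among the genes that supply and build fatty acids, Acss2 changed most. It encodes the cytosolic enzyme that makes acetyl-CoA from acetate, and it had 9.48 and 9.36 in iHepSCs, 10.73 in pHep and 7.45, 6.88, 6.97 and 6.85 in MEF. The groups did not overlap, with pHep the highest and MEF the lowest. Acss2 rose by 2.39 (standard error 0.19, 5.24-fold, adjusted p = 2.54e-04) in iHepSCs and by 3.70 (0.25, 13.0-fold, adjusted p = 1.61e-04) in pHep relative to MEF. These were the largest rises of the 35 genes in either comparison.

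Acly, which makes acetyl-CoA from citrate, had 11.69 and 11.68 in iHepSCs, 12.63 in pHep and 12.38, 11.93, 12.05 and 11.97 in MEF. Acaca, the carboxylase that makes malonyl-CoA in the cytosol, had 9.54 and 9.66 in iHepSCs, 10.67 in pHep and 9.75 to 9.91 in MEF. Fasn, fatty acid synthase, had 10.35 and 10.41 in iHepSCs, 11.48 in pHep and 10.57, 11.21, 11.23 and 11.18 in MEF. On the probe sets used for these 3 genes, iHepSCs lay below every MEF array and pHep lay above. None of the iHepSC differences from MEF passed the test. For Acly, 1 further bright probe set also had pHep above MEF, at 12.54 against 11.77 to 12.40. Another had 8.85 and 8.86 in iHepSCs, 9.50 in pHep, 9.60 in MEF replicate 1 and 10.24 to 10.345 in MEF replicates 2 to 4. There pHep lay below every MEF array.

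The iHepSC differences from MEF were -0.39 for Acly (adjusted p = 0.0977), -0.27 for Acaca (adjusted p = 0.0938) and -0.67 for Fasn (adjusted p = 0.058). Without MEF replicate 1 all of them passed, with adjusted p of 0.0158, 0.0136 and 7.66e-05. Of the pHep differences from MEF, that of Acaca passed (0.80, standard error 0.13, adjusted p = 0.00572) and those of Acly (0.55, adjusted p = 0.0757) and Fasn (0.44, adjusted p = 0.266) did not. Relative to pHep, Acaca fell by 1.07 (standard error 0.14, adjusted p = 0.00375) and Acly by 0.95 (0.21, adjusted p = 0.0286) in iHepSCs, and the call for Acly was lost when any array but MEF replicate 1 was left out (adjusted p up to 0.116).

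Me1, the malic enzyme that supplies NADPH, had 11.07 and 10.47 in iHepSCs, 10.98 in pHep and 10.65 to 10.92 in MEF, and Acacb, the carboxylase at mitochondria, had 6.27 and 5.80 in iHepSCs, 6.36 in pHep and 6.04 to 6.41 in MEF. Neither passed a test. Over all genes 18.2% were higher and 13.4% lower in iHepSCs relative to MEF. Near these shares, 1 of the 6 genes of fatty acid synthesis was higher and 0 were lower (1 and 3 at an unadjusted p, and 1 and 3 without MEF replicate 1). The median was -0.25, and 0.24 with arrays centred on Gapdh.

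The desaturases and elongases moved in both directions. Scd1, the stearoyl-CoA desaturase of liver, had 12.29 and 12.23 in iHepSCs, 13.32 in pHep and 10.81, 10.76, 10.69 and 10.60 in MEF. The groups did not overlap. Scd1 rose by 1.54 (standard error 0.10, 2.92-fold, adjusted p = 1.05e-04) in iHepSCs and by 2.61 (0.13, 6.10-fold, adjusted p = 4.90e-05) in pHep relative to MEF, and iHepSCs lay below pHep (difference -1.06, adjusted p = 0.00405).

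Elovl6, which elongates palmitate, went against Scd1. It had 7.80 and 7.60 in iHepSCs, 9.49 in pHep and 9.78, 10.16, 10.11 and 10.15 in MEF. It fell by 2.35 (standard error 0.15, 5.09-fold, adjusted p = 8.41e-05) in iHepSCs relative to MEF, the widest fall of the 35 genes. Relative to pHep the difference in iHepSCs was -1.79 (standard error 0.21, adjusted p = 0.00211). The pHep array did not differ from MEF beyond the threshold (-0.56, adjusted p = 0.0707, and 0.00211 without MEF replicate 1).

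Fads2, which starts the desaturation of polyunsaturated fatty acids, had 7.99 and 8.19 in iHepSCs, 10.46 in pHep and 9.67, 9.53, 9.54 and 9.44 in MEF. Like Dhcr7 it lay on opposite sides of MEF: it fell by 1.46 (standard error 0.11, 2.75-fold, adjusted p = 2.04e-04) in iHepSCs and rose by 0.92 (0.14, adjusted p = 0.00537) in pHep. The rise in pHep did not pass with probe sets averaged (0.51, adjusted p = 0.078) or with arrays centred on Gapdh (adjusted p = 0.106). On another bright probe set of Fads2 the level was 7.70 and 7.63 in iHepSCs, 9.32 in pHep and 8.65, 9.75, 9.89 and 9.74 in MEF, where pHep lay within the MEF arrays and iHepSCs again lay below them. Fads1, which acts after it, had 10.73 and 10.86 in iHepSCs, 11.94 in pHep and 10.71 to 10.95 in MEF. It rose by 1.06 (standard error 0.15, adjusted p = 0.00312) in pHep, whereas iHepSCs lay within the range of MEF (-0.09, adjusted p = 0.62).

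Elovl5, which elongates polyunsaturated fatty acids, had 12.37 and 12.37 in iHepSCs, 12.17 in pHep and 11.33 to 11.64 in MEF. It rose by 0.87 (standard error 0.11, adjusted p = 0.00204) in iHepSCs and by 0.67 (0.15, adjusted p = 0.0182, and 0.0512 without MEF replicate 3) in pHep. Elovl1, which elongates saturated very long chains, had 11.91 and 11.78 in iHepSCs, 11.85 in pHep and 12.41 to 12.61 in MEF, and fell by 0.70 in both comparisons with MEF (adjusted p = 0.00377 and 0.0124 for iHepSCs and pHep). Scd2, the desaturase known from brain and from embryonic tissue, had 13.78 and 13.94 in iHepSCs, 13.69 in pHep and 13.53, 13.02, 13.08 and 12.96 in MEF. Its difference of 0.71 (adjusted p = 0.0282) in iHepSCs was lost without any single array other than MEF replicate 1 (adjusted p up to 0.188), and became -0.59 (adjusted p = 0.454) when the probe sets of the gene were averaged. Of the 7 genes, 3 were higher and 3 lower in iHepSCs relative to MEF, against 18.2% and 13.4% of all genes. The median of the 7 genes, -0.09, became 0.40 with arrays centred on Gapdh.

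**Figure D4:**
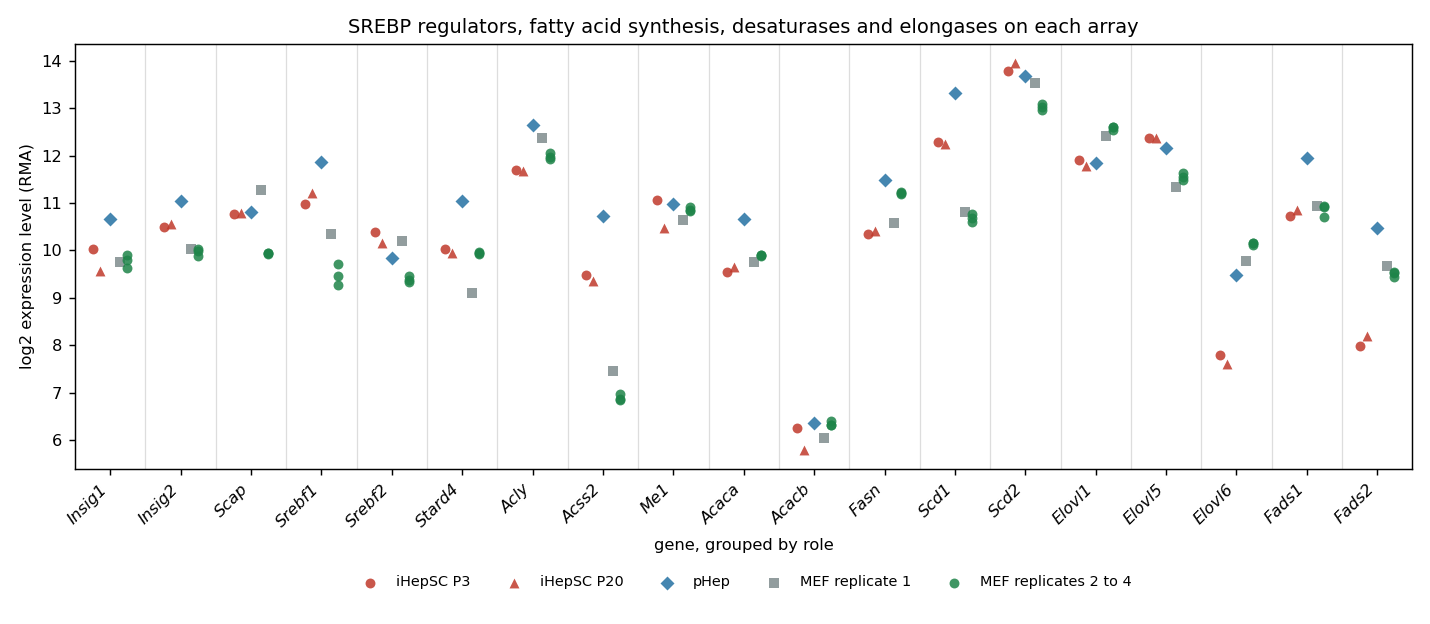
Log2 expression levels of the 6 regulators and the 13 genes of fatty acid synthesis, desaturation and elongation on each array. The vertical axis is the log2 level and each point is 1 array, with iHepSC P3 and P20 in red, pHep as blue diamonds, MEF replicate 1 as grey squares and MEF replicates 2 to 4 in green. Acss2 and Scd1 rise stepwise between the green, red and blue points, whereas the red points of Elovl6 and Fads2 lie below all others.

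The order of the arrays gives a description without a fit. Both iHepSC arrays lay below all 4 MEF arrays in 20 of the 35 genes and above them in 7, against 23.7% and 26.9% of all genes, and the groups overlapped in 8. Both iHepSC arrays lay below the pHep array in 30 of the 35 genes, against 29.9% of all genes. They lay above it in 3, Srebf2, Scd2 and Elovl5, none of which passed the test. By the fit, and relative to both MEF and pHep, 13 of the 35 genes were lower in iHepSCs, against 3.02% of all genes, with the iHepSC arrays shared by both comparisons. These were Mvk, Pmvk, Idi1, Fdps, Fdft1, Sqle, Lss, Tm7sf2, Hsd17b7, Sc5d, Dhcr7, Elovl6 and Fads2. Of them, only Fdft1, Hsd17b7, Dhcr7, Elovl6 and Fads2 kept both calls whichever iHepSC or MEF array was left out. With arrays centred on Gapdh, the Dhcr7 call against MEF and the Hsd17b7 call against pHep were lost. The Hsd17b7 call against pHep was also lost without _x_at or _s_at probe sets and with MEF replicates 2 to 4 as 1 sample. On another bright probe set of Mvk the level was 7.60 and 7.75 in iHepSCs, above 7.41 in pHep. In 6 genes, Ebp, Insig2, Srebf1, Acss2, Scd1 and Elovl5, both iHepSCs and pHep passed the test as higher than MEF. Hmgcs1, Mvd, Scap, Srebf2, Me1, Acacb and Fasn passed the test in no comparison.

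Between passages the list differed little. The median of P20 minus P3 was 0.003 over the 35 genes, with 18 above 0 and 16 below, and the range was -0.60 to 0.31. Sc5d, Insig1, Me1 and Acacb differed by more than 0.4, all lower in P20 (11.4% of the 35 genes, against 7.44% of all genes). Their differences were -0.41, -0.46, -0.60 and -0.47. Each passage was measured once, and no test was made between them. The differences between iHepSCs and MEF in Acss2, Scd1, Elovl6, Hsd17b7 and Fdft1 were each wider than any of these. Other calls were narrower than the passage difference of Me1, among them Sqle (-0.47), Lss (-0.40), Tm7sf2 (-0.57) and Insig2 (0.54).

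Most genes could be read by more than 1 probe set, and these did not always give the same answer. For 26 of the 35 genes several probe sets were present, and for 21 of them a second one had a mean level of at least 7. In 13 of these the differences between iHepSCs and MEF had the same sign, and in 8 they did not: Hmgcs1, Lss, Sc5d, Insig2, Stard4, Me1, Scd2 and Fads1. Acss2 was alike on both of its bright probe sets, 2.39 and 2.42, and Elovl6 fell on both of its bright ones.

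Scd2 and Stard4 were the most divided. The 3 probe sets of Scd2 gave differences of 0.71, -0.47 and -2.01, and on the third the level was 6.99 and 7.18 in iHepSCs, 6.68 in pHep, 6.53 in MEF replicate 1 and 9.89 to 10.00 in MEF replicates 2 to 4. Stard4 gave 0.26, 1.21 and -1.33, and on the last the level was 8.50 and 8.20 in iHepSCs, 8.30 in pHep, 7.53 in MEF replicate 1 and 10.32 to 10.45 in MEF replicates 2 to 4. On both probe sets it was MEF replicates 2 to 4 that were high. Lss had a second probe set with 7.67 and 8.55 in iHepSCs, 10.27 in pHep and 7.62 to 8.21 in MEF, on which iHepSCs were not below MEF. For these genes the direction between iHepSCs and MEF depends on the probe set.

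**Figure D5:**
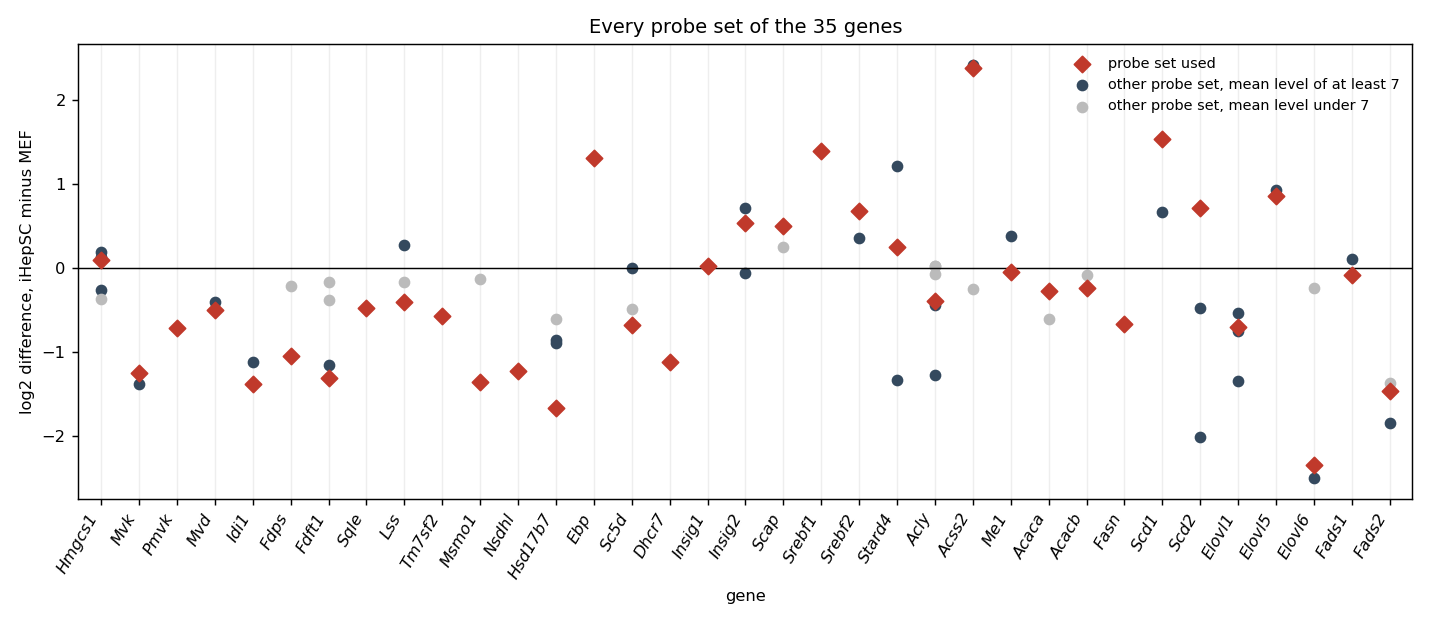
Log2 difference of iHepSC minus MEF for every probe set of the 35 genes. The vertical axis is the log2 difference and each column is a gene, with red diamonds for the probe set used, dark points for others with a mean level of at least 7 and grey points for dimmer ones. Acss2, Elovl6 and Fads2 hold their direction over their bright probe sets, and Scd2 and Stard4 spread on both sides of 0.

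A wider list held 46 further measured lipid genes, among them SREBP proteases, other elongases and the branches of the isoprenoid pathway. In iHepSCs 16 were higher and 3 lower than in MEF (25 and 8 without MEF replicate 1, 10 and 1 without either iHepSC array), with a median of 0.32. The shares over all genes were 18.2% higher and 13.4% lower. Without MEF replicate 1 more of all genes passed as well, in both directions and in each comparison. In pHep 20 were higher and 4 lower than in MEF (25 and 10 without MEF replicate 1), against 14.8% and 15.5% of all genes. Against pHep, 4 were higher and 10 lower in iHepSCs, against 9.26% and 7.89% of all genes, with 13 and 18 without MEF replicate 1 and 3 and 5 centred on Gapdh. That last comparison also gave 3 and 6 without iHepSC P3, and 2 and 8 without iHepSC P20. Among the elongases of this list, Elovl7, which extends saturated and polyunsaturated chains, had 11.69 and 11.61 in iHepSCs, 9.59 in pHep and 6.55 to 6.91 in MEF, a rise of 4.91 (standard error 0.13, adjusted p = 2.86e-06) in iHepSCs relative to MEF.

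Elovl2, the elongase of the longest polyunsaturated chains, had 3.70 and 3.74 in iHepSCs, 11.33 in pHep and 3.74 to 4.07 in MEF, so that it was high in pHep alone. Mlxipl, which encodes the glucose-responsive factor ChREBP, had 6.09 and 6.14 in iHepSCs, 9.56 in pHep and 5.19 to 5.84 in MEF. Pparg, the nuclear receptor of adipose tissue, had 10.72 and 10.29 in iHepSCs, 6.41 in pHep, 7.21 in MEF replicate 1 and 9.05 to 9.40 in MEF replicates 2 to 4, and rose by 4.09 (standard error 0.90, adjusted p = 0.0282) in iHepSCs relative to pHep, a call lost without any single array other than MEF replicate 1 (adjusted p up to 0.132). Ppargc1b, a coactivator of SREBP-1, rose by 1.84 (standard error 0.28, adjusted p = 0.00388) in iHepSCs relative to MEF. Mid1ip1, which activates acetyl-CoA carboxylase, the enzyme that makes malonyl-CoA, rose by 1.06 (0.12, adjusted p = 0.00101) in the same comparison. In the isoprenoid branches, Coq2 of ubiquinone synthesis rose by 1.49 (standard error 0.11, adjusted p = 1.99e-04) and Ggps1, which makes geranylgeranyl diphosphate, fell by 0.79 (0.22, adjusted p = 0.0414), each relative to MEF. The call for Ggps1 was lost without any single array other than MEF replicate 1 (adjusted p up to 0.252).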

How the data were processed

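RNA of 2 iHepSC, 1 pHep and 4 MEF samples was hybridized to Affymetrix mouse arrays. The authors processed the arrays by Robust Multiarray Analysis (RMA), and the deposited values are log2 expression levels of 45101 probe sets, with array medians of 6.28 to 6.33. No RMA version is given in the sources used here. The small number of arrays limits the precision.

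Genes were assigned from the platform annotation, in which 34958 probe sets had 1 symbol, 932 several and 9211 none, and only those with 1 symbol were used, without the 64 control probe sets. Each of 18193 genes was represented by its brightest probe set (mean of all 7 arrays), with no filter on dim values. A mean per group was fitted with limma 3.58.1 in R 4.3.3 (lmFit, eBayes; 4 residual degrees of freedom, prior 2.11) and p-values were adjusted by Benjamini-Hochberg over all genes at a threshold of 0.05. The pHep array adds no spread. Promoter windows came from RefSeq tables of GRCm38.p6. Standard errors in brackets follow their differences, and SDs are not printed where all arrays are given.

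The members, the lists and the tests were chosen with earlier results of these data known. All members may be named, and of the wider lipid list the 2 largest rises and falls past the test in each part and comparison. Alternatives were the mean of all probe sets, no _x_at or _s_at probe sets, a filter at 6, quantile normalization again, centring on the median or on Gapdh (mean of 3 control probe sets), trend and robust fitting, MEF replicates 2 to 4 as 1 sample, each array left out, the replicate number as a block, and the unpaired test of the methods. The software for tables and plots was Python 3.11.15, pandas 2.3.3, scipy 1.17.1 and matplotlib 3.10.9.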

Additional observations from a re-analysis of the deposited data

Results flagged for a closer look

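Of the 35 genes, 7 had a MEF array far from the other 3 by Dixon's test for 4 values, and chance alone gives about 1 such group in 20. The share was 20%, against 23.5% of all genes. On MEF replicate 1, Idi1 was at 11.39 with the others at 11.92 to 11.93, Stard4 at 9.09 with the others at 9.93 to 9.97, Fasn at 10.57 with the others at 11.18 to 11.23 and Elovl6 at 9.78 with the others at 10.11 to 10.16. Scap was high there, at 11.27 with the others at 9.92 to 9.94, as was Srebf2, at 10.20 with the others at 9.33 to 9.47. On MEF replicate 4, Fads1 was at 10.71 with the others at 10.91 to 10.95. MEF replicate 1 lay over 0.5 from the mean of the other MEF arrays in 11 of the 35 genes (31.4%), against 31.2% of all genes, so that the synthesis genes set it apart about as often as other genes did. Its 3 markers of arrest and senescence, Cdkn2a among them, averaged 13.18, against 10.50 to 10.64 on MEF replicates 2 to 4.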

How the results depend on the processing

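Of the calls made, 6 of 23 between iHepSCs and MEF held in all 16 alternatives (Fdft1, Hsd17b7, Acss2, Scd1, Elovl6 and Fads2), and 2 of 18 between pHep and MEF (Acss2 and Scd1) and 0 of 20 between iHepSCs and pHep held in all 15. With each array left out in turn, 14, 14 and 11 calls held, and members that were higher and lower numbered 4 to 9 and 10 to 20 (iHepSC against MEF), 12 to 24 and 2 to 6 (pHep against MEF) and 0 to 1 and 12 to 28 (iHepSC against pHep). With MEF replicates 2 to 4 as 1 sample the counts were 4 and 8, 8 and 0, and 0 and 9 in the same order. Centred on Gapdh they were 9 and 8, 9 and 0, and 0 and 6. The unpaired test of the methods, adjusted, gave 5 and 13 for iHepSCs against MEF, and 7 and 18 unadjusted. Over all genes, iHepSCs against MEF gave 3310 higher and 2446 lower, with 4557 and 1053 centred on Gapdh, 1517 and 1184 with MEF replicates 2 to 4 as 1 sample, 845 and 682 with the replicate block and 5638 and 4514 without MEF replicate 1.

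Deviations of same-numbered iHepSC and MEF arrays from their group means correlated at r = -0.22 and -0.21. With only 2 iHepSC arrays, the deviation of 1 mirrors that of the other, so these values are not separate. They cannot decide whether the replicate numbers carry a pairing. With the replicate block, members higher and lower numbered 2 and 4, 2 and 0, and 0 and 0.

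Differences of iHepSC minus MEF that changed sign were those of Lss, 0.28 without _x_at and _s_at probe sets and 0.0880 centred on Gapdh, Sqle, 0.0213 centred on Gapdh, and Scd2, -0.59 with probe sets averaged. None of these passed the test. No call of the wider lipid list changed its sign. The single pHep array and the 2 iHepSC arrays limit all comparisons, and genes near the lowest array values have no firm level.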

Other observations

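Several genes that build triglycerides were higher in iHepSCs. Of 10 measured genes of glycerolipid synthesis, 6 were higher and 0 lower in iHepSCs relative to MEF, the same at an unadjusted p under 0.05 (limma), against 18.2% higher and 13.4% lower over all genes. Agpat1, Lpin1, Lpin3 and Mogat1 did not pass, with differences of -0.39, 0.64, -0.25 and 0.01. The median was 0.88, and 4 were higher without either iHepSC array. Dgat2, which adds the last fatty acid to a triglyceride, had 10.42 and 10.73 in iHepSCs, 11.63 in pHep and 7.86, 8.18, 8.37 and 8.21 in MEF, a rise of 2.42 (standard error 0.17, adjusted p = 1.55e-04) in iHepSCs and of 3.47 (0.22, adjusted p = 1.35e-04) in pHep relative to MEF. Lpin2, a phosphatidate phosphatase, had 10.09 and 10.36 in iHepSCs, 11.85 in pHep and 8.28 to 8.84 in MEF. Its rise in iHepSCs relative to MEF was 1.72 (standard error 0.18, adjusted p = 8.86e-04). Mogat2, the monoacylglycerol acyltransferase known from gut, was the exception in pHep, with 9.51 and 9.53 in iHepSCs, 7.20 in pHep and 9.08 to 9.29 in MEF. Relative to pHep it rose by 2.32 (standard error 0.14, adjusted p = 1.44e-04) in iHepSCs.

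Of 7 genes of sterol esters and sterol movement, 2 were higher and 1 lower in iHepSCs than in MEF, against 18.2% and 13.4% of all genes. Nceh1, a cholesterol ester hydrolase, had 9.87 and 10.16 in iHepSCs, 9.16 in pHep and 8.42 to 8.52 in MEF. Lcat, the plasma enzyme that esterifies cholesterol, was high only in pHep, with 5.71 and 5.66 in iHepSCs, 9.88 in pHep and 5.73 to 6.63 in MEF. Npc2, which hands cholesterol on in lysosomes, fell by 0.88 (standard error 0.11, adjusted p = 0.00144) in iHepSCs and by 0.89 (0.14, adjusted p = 0.00483) in pHep relative to MEF, and neither passed with arrays centred on Gapdh.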
